A study of Saccharomyces cerevisiae with 22 samples.

Results

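The 10 genes described here encode amino acid permeases of the yeast plasma membrane, each known mainly for 1 amino acid or a small group of them. They were chosen by name, with no measured value in the rule, and are 10 of the 6696 genes in the count files. AGP1 (YCL025C) encodes a permease with a broad range in spite of its place in this group, and GNP1 (YDR508C) a glutamine permease. BAP2 (YBR068C) and BAP3 (YDR046C) encode permeases for the branched-chain amino acids. TAT1 (YBR069C) encodes a tyrosine and valine permease and TAT2 (YOL020W) the high-affinity tryptophan permease. LYP1 (YNL268W) encodes the lysine, CAN1 (YEL063C) the arginine, HIP1 (YGR191W) the histidine and MUP1 (YGR055W) the high-affinity methionine permease.

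The series asks which mRNAs reach the vacuole, the lytic compartment of yeast, by autophagy, and how their abundance and ribosome association change under rapamycin, a drug that inhibits the TORC1 kinase. All cells were Saccharomyces cerevisiae, labelled X2180-1a, though the study's strain list gives X2180-1B for both mutants. They were grown in rich medium (YPD), and treated cells received 0.2 µM rapamycin. In the vacuole experiment, RNA was sequenced from isolated vacuoles and from total lysates of 2 strains: rny1Δ atg2Δ cells (rny1Δ::natNT2, atg2Δ::kanMX6), which lack the vacuolar ribonuclease Rny1 and, through loss of Atg2, autophagy, and rny1Δ cells (rny1Δ::natNT2), which lack the nuclease alone. Each strain had 2 vacuole and 2 total libraries after 3 h of rapamycin, and 1 vacuole and 1 total library from growing cells. In the WT experiment, mRNA and ribosome footprints, the fragments that ribosomes protect from nuclease, were sequenced in 5 libraries each: 2 from growing cells and 1 each at 1, 2 and 3 h of rapamycin.

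Amino acid permeases bring amino acids across the plasma membrane as nutrients and as nitrogen sources. Many genes of this group respond to external amino acids through the Ssy1-Ptr3-Ssy5 (SPS) sensor, which releases the transcription factors Stp1 and Stp2, whereas permeases used to scavenge nitrogen, such as Gap1, are under nitrogen regulation downstream of TORC1. The permeases also turn over at the surface, where the Rsp5 ubiquitin ligase and its arrestin-like adaptors mark them for endocytosis and delivery to the vacuole.

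In the R64 assembly, called sacCer3 in the submitters' notes, the 10 coding genes lie on 8 chromosomes and each spans 1 annotated interval. AGP1 lies at chrIII:76018-77919, CAN1 at chrV:31694-33466, LYP1 at chrXIV:138550-140385 and TAT2 at chrXV:286172-287950. GNP1 lies at chrIV:1466453-1468444 and BAP3 at chrIV:548762-550576. HIP1 lies at chrVII:880420-882231 and MUP1 at chrVII:599417-601141. BAP2 (chrII:373861-375690) and TAT1 (chrII:376574-378433) are neighbours on chromosome II, 883 bp apart, with no annotated gene between them. TAT1 overlaps the antisense transcript TBRT. The kit of the RNA libraries did not mark strand, so in those libraries reads of TAT1 and TBRT cannot be told apart. This does not extend to the footprint libraries, which were made by ligating a linker to the fragments.

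Depth was 9156333 to 22097523 counts on genes in 11 of the 12 libraries of the vacuole experiment. Replicate 2 of the rny1Δ atg2Δ vacuole libraries after rapamycin had only 535462, where 3 counts equal 5.60 CPM (counts scaled to library size). The WT mRNA libraries held 10361721 to 14917164 counts and the footprint libraries 2657480 to 20413301. ATG2 had 0 to 79 counts in the 6 rny1Δ atg2Δ libraries, against 851 to 1448 in the 6 rny1Δ libraries. RNY1 had 9 to 439 counts in all 12 of these libraries, so its deletion was not visible in the counts, and the strain names here are the libraries' labels. Counts that mapped to mitochondrially encoded genes made up 0.0159 to 1.23% of the vacuole libraries, against 0.781 to 5.85% of the total libraries.

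The first question was how permease mRNA changed during rapamycin treatment of WT cells. AGP1 rose about 10-fold, CAN1 about 2-fold at 1 and 2 h, and 7 of the 10 genes fell at 1 h: GNP1, BAP2, BAP3, TAT1, TAT2, HIP1 and MUP1. Values are normalized CPM, scaled by TMM, which sets libraries level at the majority of genes. In this report a gene is said to have risen or fallen where its log2 change was at least 1 in size and its adjusted p was under 0.01 (edgeR's quasi-likelihood test, Benjamini-Hochberg adjustment over all protein-coding genes tested). Of the 10 members, 9 changed at 1 h, 8 at 2 h and 8 at 3 h, where 30.8%, 25.7% and 27.6% of all tested genes changed. For the 7 that fell at 1 h, 16.3% of all genes fell at that time. The median log2 change of the members was -1.84 at 1 h, -1.33 at 2 h and -1.18 at 3 h, and that of all genes was 0.01, 0.02 and -0.01. In bulk RNA, fewer cells with a transcript and less of it per cell cannot be told apart.

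AGP1 mRNA stood at 55.6 and 58.1 CPM in growing cells and at 534, 519 and 573 CPM at 1, 2 and 3 h. All 3 rapamycin libraries were thus far above both growing libraries, and the level hardly moved after 1 h. Its log2 change at 3 h was 3.33 ± 0.12 (SE, adjusted p = 3.9e-13), which is 10.1-fold higher. CAN1 had 224 and 199 CPM in growing cells and 428, 461 and 355 CPM at 1, 2 and 3 h. The arginine permease mRNA was again above both growing libraries at every time, with its highest level at 2 h. Its log2 change was 1.02 ± 0.12 at 1 h and 1.12 ± 0.12 at 2 h, and 0.75 ± 0.12 at 3 h, which is under the fold threshold.

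The branched-chain permease genes differed in their time course. BAP2 had 376 and 363 CPM in growing cells and 85.3, 74.2 and 81.5 CPM at 1, 2 and 3 h, a low level that held through the series (log2 change at 3 h -2.18 ± 0.13). BAP3 had 249 and 246 CPM in growing cells and 52.8, 91.9 and 108 CPM at the later times, lowest at 1 h, with a log2 change of -2.23 ± 0.13 there and -1.20 ± 0.12 at 3 h. TAT1, the chromosomal neighbour of BAP2, had the lowest 1 h value of the group. It stood at 473 and 422 CPM in growing cells and at 29.3, 61.8 and 80.8 CPM at 1, 2 and 3 h. This is 15.3-fold lower at 1 h (log2 change -3.93 ± 0.15) and 5.53-fold lower at 3 h (log2 change -2.47 ± 0.13). The same shape, a drop at 1 h followed by higher values, was seen for the methionine permease gene. MUP1 had 264 and 249 CPM in growing cells and 33.8, 62.3 and 115 CPM at 1, 2 and 3 h, with log2 changes of -2.92 ± 0.14, -2.04 ± 0.12 and -1.15 ± 0.12.

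GNP1 was lowest at 1 h too, with 71.5 CPM there, 157 CPM at 2 h and 141 CPM at 3 h, after 306 and 288 CPM in growing cells. Its log2 change was -2.05 ± 0.13 at 1 h, -0.92 ± 0.12 at 2 h, under the threshold, and -1.08 ± 0.12 at 3 h. TAT2 and HIP1 fell to a lower and steadier level. TAT2 had 217 and 187 CPM in growing cells and 71.4, 86.3 and 87.7 CPM at 1, 2 and 3 h (log2 change -1.20 ± 0.13 at 3 h). HIP1 had 216 and 194 CPM in growing cells and 65.9, 58.5 and 73.5 CPM later (log2 change -1.48 ± 0.12 at 3 h). LYP1 moved least. Its level was 274 and 232 CPM in growing cells and 168, 163 and 166 CPM at 1, 2 and 3 h, with log2 changes of -0.59 ± 0.13, -0.63 ± 0.13 and -0.60 ± 0.13, all under the fold threshold.

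**Figure D1:**
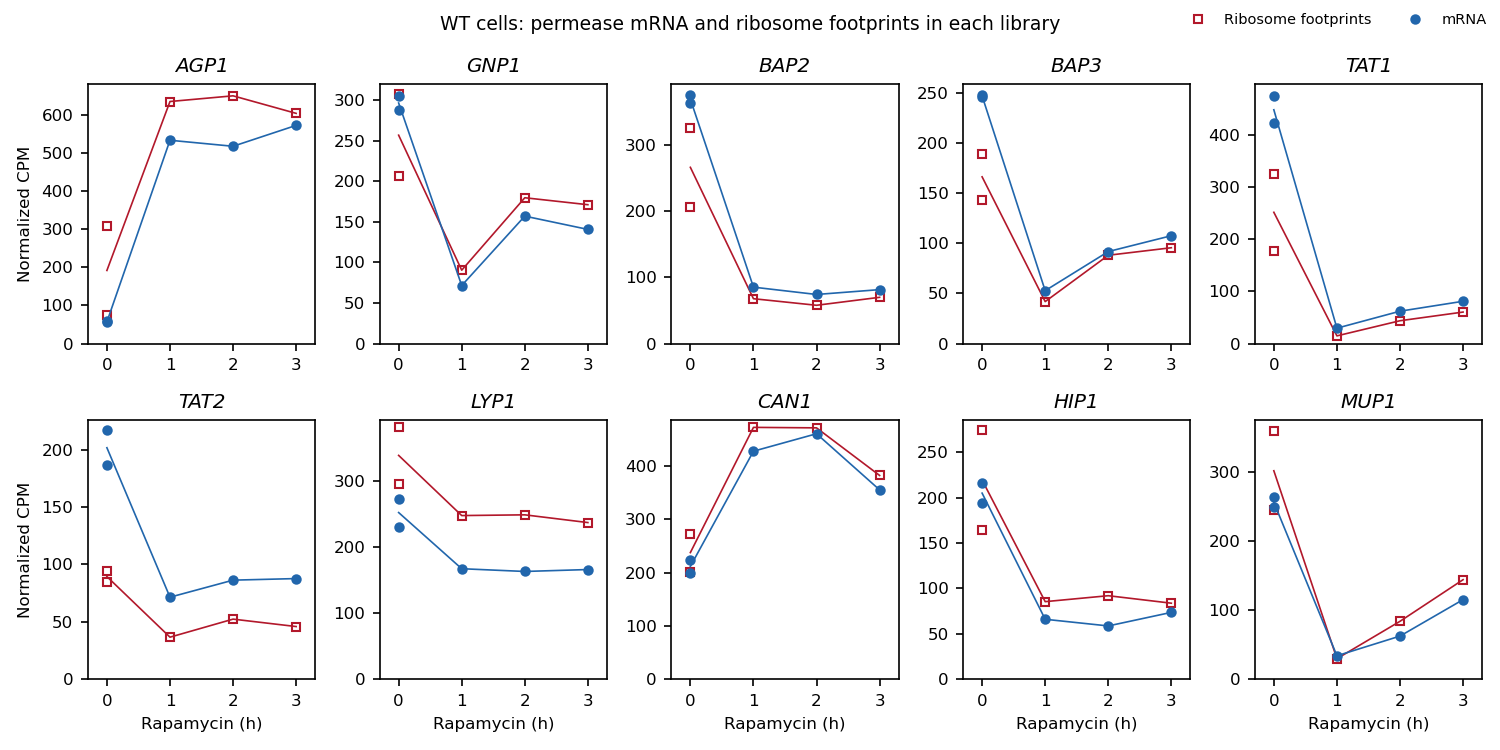
Normalized CPM of the 10 permease genes (y axis, scaled separately within footprint and within mRNA libraries) against hours of rapamycin (x axis, 0 is growing cells) in WT cells. Open squares are footprint libraries, filled circles mRNA libraries, and lines join the mean of each time. AGP1 mRNA was above 500 CPM at every rapamycin time, and TAT1 and MUP1 mRNA were lowest at 1 h.

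These WT tests rest on the spread between the 2 growing libraries, since each rapamycin time has 1 library, and fitting the 10 WT mRNA and footprint libraries together left 3 members called at 1 h and 0 at 2 and 3 h, although all directions held. The study took RNA for the mRNA libraries from the lysates used for footprints. With the replicate number of growing cells as a block in that joint fit, 8, 5 and 3 members were called. The share of all genes called is not given for the joint fits, so their counts show only how calls moved with the fit. Without growing mRNA replicate 1, and likewise without replicate 2, 3 members were called at 1 h, 1 at 2 h and 0 at 3 h in the joint fit with no block. Scaling to library totals, an alternative chosen after the scaling factors were seen, moved the median of all genes to 0.68, 0.75 and 0.73 at 1, 2 and 3 h. The log2 change of LYP1 then turned to 0.08, 0.11 and 0.14, and 7, 6 and 4 members were called, with AGP1, CAN1, BAP2 and TAT1 past the threshold in the same direction at all 3 times. The changes above are therefore relative to the median gene.

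Compared per coding length (TPM, computed from the counts), the order of the permeases in WT cells changed with rapamycin. TPM have the same sum in every library and were not scaled by TMM, so they are read within a time and not as changes between times. In growing cells TAT1 was highest at 172 ± 0.835 TPM (SD, n = 2 here and below), followed by BAP2 at 144 ± 7.40 TPM. GNP1 (106 ± 3.39 TPM) and MUP1 (106 ± 3.62 TPM) did not differ beyond their spread, nor did LYP1 (98.1 ± 4.25 TPM) and BAP3 (97.5 ± 6.77 TPM). CAN1 had 85.1 ± 0.885 TPM, and TAT2 (80.8 ± 2.45 TPM) and HIP1 (80.6 ± 0.205 TPM) were again within their spread of each other. AGP1 was lowest at 21.4 ± 2.27 TPM. In the single 3 h library AGP1 was highest at 478 TPM and CAN1 second at 317 TPM, while TAT1 (68.9 TPM) and HIP1 (64.3 TPM) were the lowest.

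The summed counts of the 10 genes took 0.181 and 0.181% of library totals in growing WT mRNA, and 0.176, 0.208 and 0.215% at 1, 2 and 3 h. Library totals are not scaled by TMM, whose factors were 0.713 and 0.774 in growing cells and 1.18, 1.23 and 1.24 at 1, 2 and 3 h. The shares therefore do not show that the sum held relative to the median gene. The makeup of the sum changed. AGP1 made up 2.09 and 2.38% of it in growing cells and 34.7, 29.9 and 32.2% at 1, 2 and 3 h. TAT1 made up 17.8 and 17.3% in growing cells and 1.90, 3.56 and 4.54% at the rapamycin times.

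**Figure D2:**
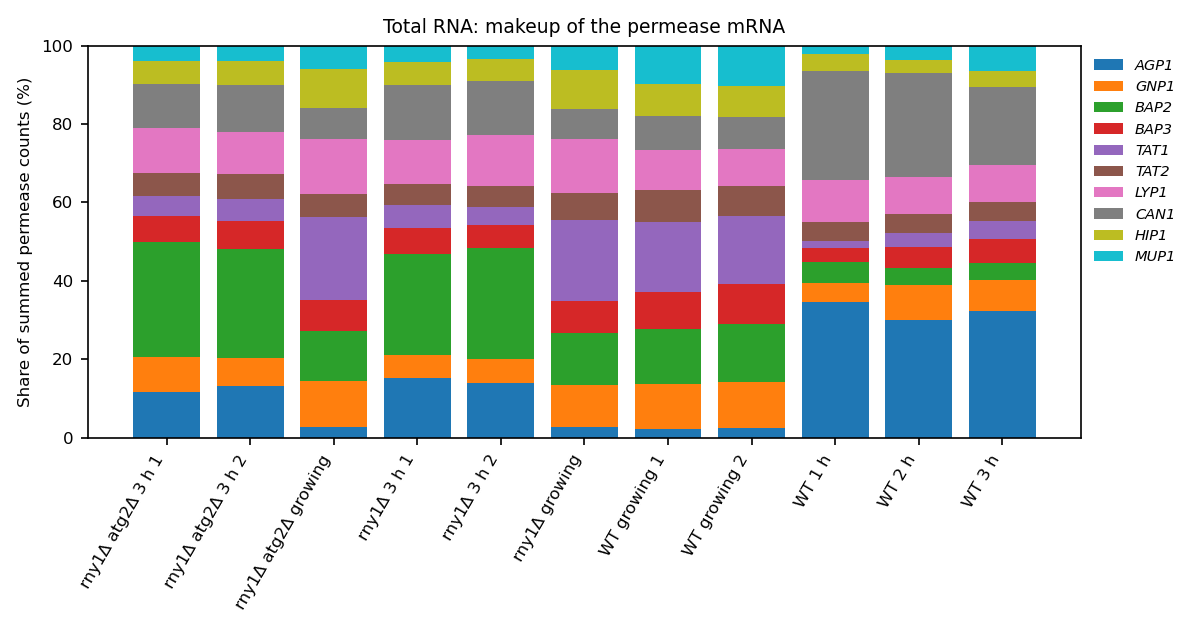
Share of each permease gene in the summed counts of the 10 genes (y axis, percent), in each total RNA library of the mutants and each WT mRNA library (x axis). AGP1 and CAN1 widen with rapamycin in all 3 strains, and BAP2 widens in both mutants and narrows in WT cells.

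The total RNA of the mutants gave a comparison of treated with growing cells at 3 h in cells without Rny1. Per the study's methods, rRNA was depleted with Ribo-Zero in the vacuole experiment, a step not named for the WT mRNA libraries. AGP1 rose and TAT1 fell in both strains, and GNP1 reached the threshold in rny1Δ cells. Of the 10 members, 2 changed in rny1Δ atg2Δ cells and 3 in rny1Δ cells, where 47.2% and 44.3% of all tested genes changed. The members' median log2 change was -0.45 in rny1Δ atg2Δ cells and -0.54 in rny1Δ cells, beside -0.02 and -0.05 for all genes.

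In rny1Δ atg2Δ total lysates AGP1 had 212 and 251 CPM after rapamycin, against 59.7 CPM in growing cells. In rny1Δ lysates it had 295 and 249 CPM after rapamycin, against 58.4 CPM in growing cells. The rapamycin libraries lay well above the growing library in both strains, at 3.87-fold higher (log2 change 1.95 ± 0.15, adjusted p = 1.2e-09) and 4.66-fold higher (log2 change 2.22 ± 0.15, adjusted p = 3.1e-10), by edgeR's quasi-likelihood test. TAT1 had 90.2 and 110.2 CPM after rapamycin in rny1Δ atg2Δ cells, against 448 CPM in growing cells. In rny1Δ cells it had 112 and 82.3 CPM, against 437 CPM. The fall of TAT1 had the same size in both strains, with log2 changes of -2.16 ± 0.15 and -2.17 ± 0.15.

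BAP2 was the member whose direction differed from that in WT cells. It had 532 and 523 CPM after rapamycin in rny1Δ atg2Δ cells, against 269 CPM in growing cells, and 496 and 509 CPM in rny1Δ cells, against 279 CPM. All 4 treated libraries were above the growing ones, with log2 changes of 0.97 ± 0.14 and 0.85 ± 0.14, just under the fold threshold (adjusted p = 4.4e-06 and 2.3e-05, edgeR). In WT cells the log2 change of BAP2 at 3 h was -2.18. The experiments were made and counted separately, so this difference was not tested, and strain and experiment cannot be told apart.

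Among the other members, CAN1 had log2 changes of 0.38 ± 0.12 in rny1Δ atg2Δ cells and 0.69 ± 0.12 in rny1Δ cells. GNP1 had 111 and 110.4 CPM in rny1Δ lysates after rapamycin, against 222 CPM in growing cells, and 161 and 135 CPM in rny1Δ atg2Δ lysates, against 247 CPM. GNP1 was 2.01-fold lower in rny1Δ cells, which is at the threshold (log2 change -0.95 with DESeq2 size factors, no longer called), and had a log2 change of -0.74 ± 0.12 in rny1Δ atg2Δ cells. HIP1 and MUP1 had -0.96 and -0.76 in rny1Δ atg2Δ cells and -0.97 and -0.87 in rny1Δ cells. Without rny1Δ total replicate 1, HIP1 (-1.10) and MUP1 (-1.05) were also called in rny1Δ cells. BAP3, TAT2 and LYP1 had log2 changes between -0.16 and -0.55.

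**Figure D3:**
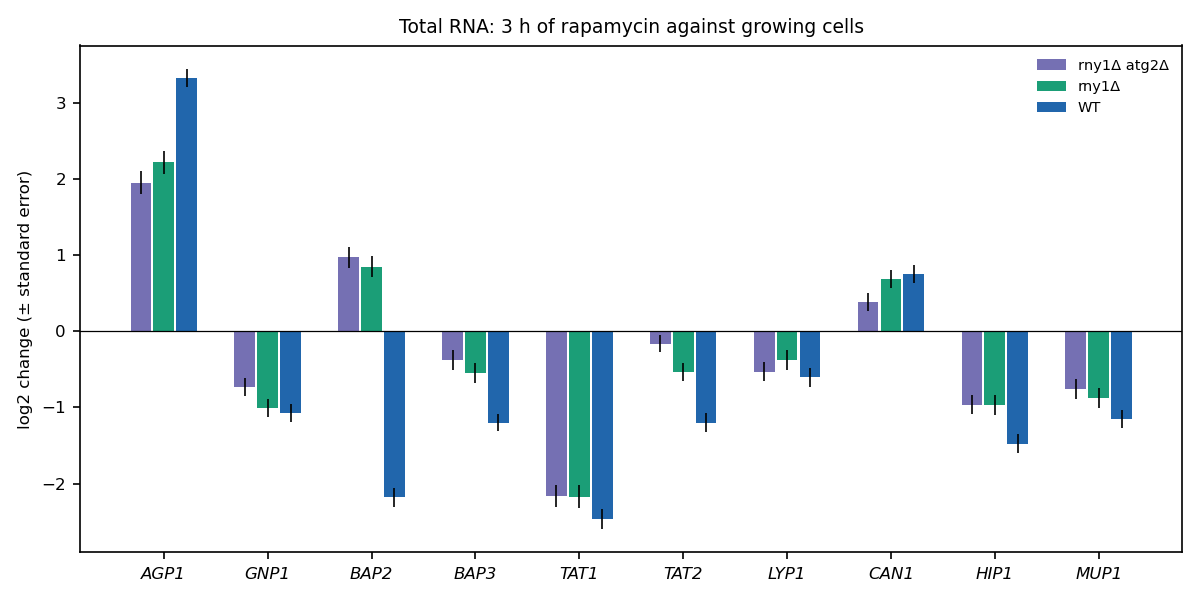
Log2 change in total RNA after 3 h of rapamycin against growing cells (y axis, bars with standard error) for the 10 permease genes (x axis) in rny1Δ atg2Δ, rny1Δ and WT cells. BAP2 was 0.97 and 0.85 in the mutants and -2.18 in WT cells, and the other members had 1 direction in all 3 strains.

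Between the strains, the total RNA of treated cells differed little. None of the 10 members was called, with 0.539% of all tested genes called, and log2 differences of rny1Δ atg2Δ against rny1Δ ran from -0.24 (CAN1) to 0.42 (GNP1). By edgeR 3 members had an unadjusted p under 0.05, as did 24.5% of all genes. DESeq2 called 0 as well. GNP1 was the highest, with 161 and 135 CPM in rny1Δ atg2Δ lysates, against 111 and 110.4 CPM in rny1Δ lysates (log2 difference 0.42 ± 0.10, adjusted p = 0.015, edgeR).

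The vacuole fraction was the place where the strains parted. Vacuole libraries give each mRNA's share of the RNA sequenced, and not how much RNA the vacuoles of either strain held. After rapamycin, the vacuole/total ratio was above 0 on the log2 scale for all 10 members in rny1Δ atg2Δ cells, and below 0 for 8 of 10 in rny1Δ cells, the exceptions being AGP1 and CAN1. No member reached the fold threshold in either strain, where 3.29% of genes did in rny1Δ atg2Δ cells and 18.3% in rny1Δ cells. At adjusted p under 0.01 with no fold threshold, 5 members were higher in the vacuole in rny1Δ atg2Δ cells (11.9% of all genes were) and 8 were lower in rny1Δ cells (27.3% of all genes were). These counts moved with the setting: they were 2 and 3 with a coding length correction, 2 and 3 with at least 10 counts in every library, and 2 and 1 with library totals. Leaving out 1 library gave 0 to 8 in rny1Δ atg2Δ cells, with 0 without their vacuole replicate 1, 2 and 3 without their total replicate 1 or 2, and 8 without either rny1Δ total replicate. In rny1Δ cells it gave 2 to 8, with 2 without their total replicate 1 and 4 without their vacuole replicate 1. The members' median log2 ratio was 0.40 in rny1Δ atg2Δ cells and -0.41 in rny1Δ cells, beside -0.02 and 0.04 for all genes.

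BAP2 had the lowest ratio in rny1Δ cells. Its level was 256 and 310.5 CPM in their vacuoles after rapamycin, against 496 and 509 CPM in their total lysates, with no overlap (log2 ratio -0.83 ± 0.11, adjusted p = 3.7e-06, edgeR's quasi-likelihood test). In rny1Δ atg2Δ cells the vacuole libraries had 709 and 615 CPM, against 532 and 523 CPM in total lysates, so the order was turned round (log2 ratio 0.35 ± 0.11). GNP1 had 234 and 238 CPM in rny1Δ atg2Δ vacuoles, against 161 and 135 CPM in their lysates. Its rny1Δ vacuoles had 85.7 and 88.4 CPM, against 111 and 110.4 CPM in lysates. The log2 ratios of GNP1 were 0.66 ± 0.11 in rny1Δ atg2Δ cells, the highest of the group, and -0.35 ± 0.10 in rny1Δ cells.

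HIP1 had 179 and 141 CPM in rny1Δ atg2Δ vacuoles after rapamycin, against 106 and 111 CPM in lysates, and 71.9 and 77.5 CPM in rny1Δ vacuoles, against 115 and 97.9 CPM in lysates. The histidine permease mRNA thus also lay on opposite sides of its total level in the strains (log2 ratios 0.64 ± 0.12 and -0.51 ± 0.11). TAT1 had 145 and 161 CPM in rny1Δ atg2Δ vacuoles, against 90.2 and 110.2 CPM in lysates, and 68.7 and 73.0 CPM in rny1Δ vacuoles, against 112 and 82.3 CPM in lysates. BAP3 had 172 and 156 CPM in rny1Δ atg2Δ vacuoles, against 124 and 132 CPM in lysates, and 79.6 and 85.3 CPM in rny1Δ vacuoles, against 129.9 and 104 CPM in lysates. Both followed the pattern of HIP1, with log2 ratios of 0.57 ± 0.14 and -0.45 ± 0.13 for TAT1 and 0.39 ± 0.12 and -0.50 ± 0.11 for BAP3. LYP1, MUP1 and TAT2 had ratios of 0.41, 0.48 and 0.14 in rny1Δ atg2Δ cells and -0.43, -0.37 and -0.38 in rny1Δ cells.

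AGP1 and CAN1, the members whose log2 change with rapamycin was above 0 in all 3 strains, stood apart in rny1Δ cells. AGP1 had 291 and 324 CPM in rny1Δ atg2Δ vacuoles, against 212 and 251 CPM in lysates, and 299 and 303 CPM in rny1Δ vacuoles, against 295 and 249 CPM in lysates. CAN1 had 281 and 289 CPM in rny1Δ atg2Δ vacuoles, against 207 and 231 CPM in lysates, and 268 and 282 CPM in rny1Δ vacuoles, against 268 and 247 CPM in lysates. Their vacuole levels were nearly the same in both strains, and their log2 ratios in rny1Δ cells were 0.15 ± 0.11 and 0.09 ± 0.10.

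**Figure D4:**
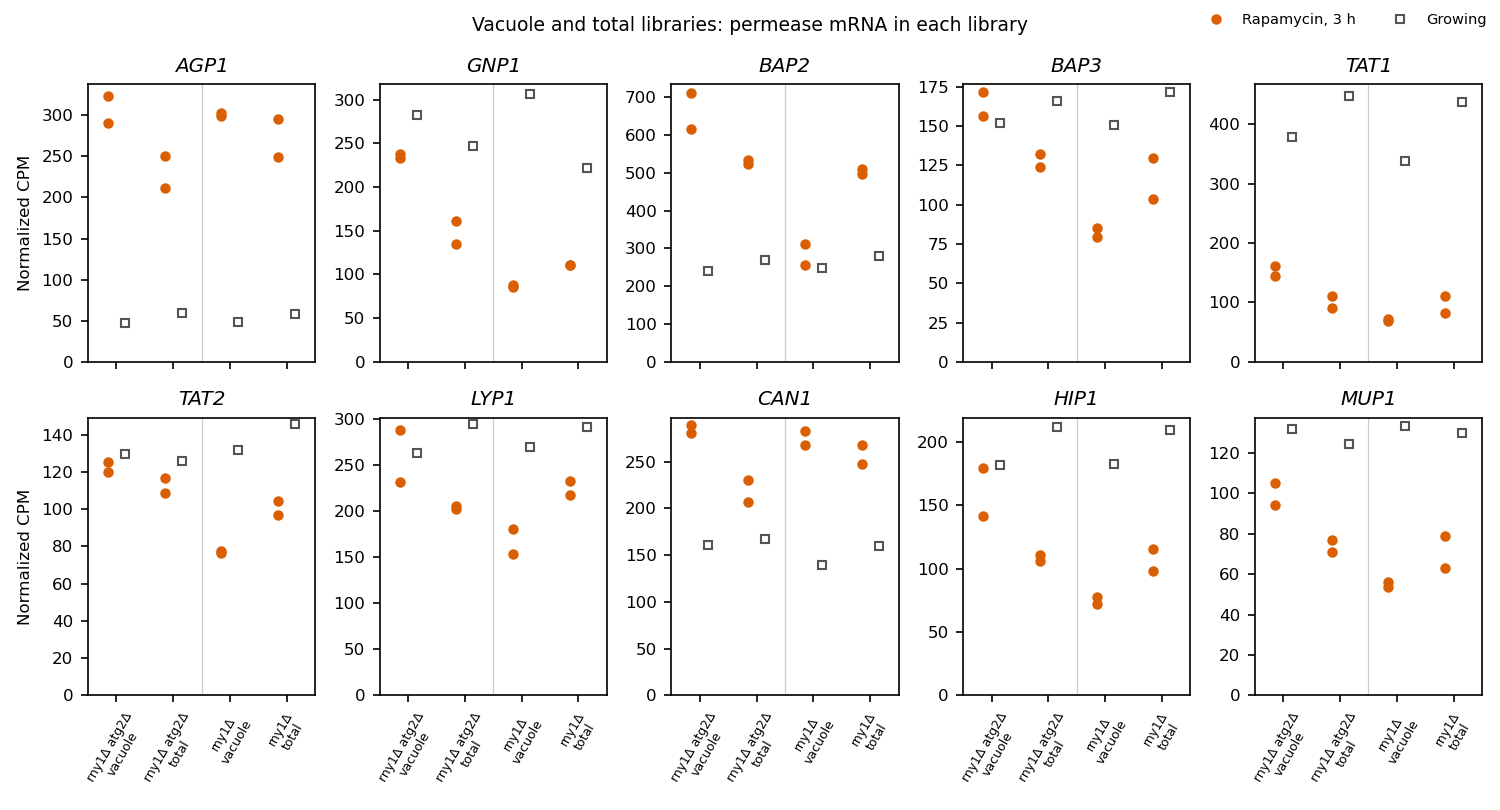
Normalized CPM of the 10 permease genes (y axis) in each library of the vacuole experiment, by strain and fraction (x axis). Filled circles are libraries after 3 h of rapamycin and open squares libraries of growing cells. GNP1, BAP2, BAP3, TAT1, TAT2, LYP1, HIP1 and MUP1 are higher in rny1Δ atg2Δ vacuoles than in rny1Δ vacuoles after rapamycin, and AGP1 and CAN1 are at about the same level in both.

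Set directly against each other, the vacuoles of treated rny1Δ atg2Δ cells had 5 permease mRNAs at a higher share of their library than those of rny1Δ cells, where 25.3% of all genes were called in either direction and 10.8% as higher. These were GNP1 (2.70-fold higher, log2 difference 1.43 ± 0.11), BAP2 (2.37-fold higher, 1.24 ± 0.11), HIP1 (2.27-fold higher, 1.18 ± 0.12), TAT1 (2.10-fold higher, 1.07 ± 0.14) and BAP3 (2.04-fold higher, 1.03 ± 0.12). MUP1, LYP1 and TAT2 had log2 differences of 0.91 ± 0.12, 0.70 ± 0.12 and 0.69 ± 0.11, under the fold threshold. AGP1 (0.00 ± 0.12) and CAN1 (0.04 ± 0.10) were near 0. The members' median was 0.97, beside -0.01 for all genes. Leaving out 1 library gave 3 to 6 called members: without rny1Δ atg2Δ vacuole replicate 1 HIP1 (0.92) and BAP3 (0.92) were under the fold threshold, and without rny1Δ vacuole replicate 2 MUP1 (1.02) passed it. Scaling to library totals moved the median of all genes to -0.44 and left 1 member called, a coding length correction left 2, and at least 10 counts in every library 3.

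Vacuolar enrichment is the vacuole/total ratio after rapamycin over that of growing cells, a ratio of shares within libraries that holds no measure of how much RNA a vacuole contained. The ratio of growing cells rests on 1 vacuole and 1 total library per strain. In growing cells, the members' log2 ratios ran from -0.34 (AGP1) to 0.19 (GNP1) in rny1Δ atg2Δ cells and from -0.37 (TAT1) to 0.46 (GNP1) in rny1Δ cells. The strains were thus close before treatment, and no member differed between them by more than 0.20 on the log2 scale in growing vacuoles or 0.21 in growing total lysates.

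By this measure no member was called in either strain, where 3.72% of genes were called in rny1Δ atg2Δ cells and 20.1% in rny1Δ cells. At an unadjusted p under 0.05 there were 8 members in rny1Δ atg2Δ cells (28.7% of all genes) and 4 in rny1Δ cells (55.7% of all genes), and DESeq2 called 0 in both. In rny1Δ atg2Δ cells all 10 values were above 0, from 0.11 ± 0.17 (TAT2) to 0.87 ± 0.19 (HIP1, adjusted p = 0.0059, edgeR), with a median of 0.52, beside 0.03 for all genes. In rny1Δ cells 8 of 10 values were below 0, and the members' median was -0.32, beside 0.08. GNP1 (-0.81 ± 0.17, adjusted p = 0.0011) and BAP2 (-0.65 ± 0.19, adjusted p = 0.0087) had the lowest values there by edgeR, and MUP1, LYP1, BAP3, HIP1, TAT2 and TAT1 lay between -0.40 and -0.08. AGP1 (0.42 ± 0.20) and CAN1 (0.29 ± 0.17) were above 0. With library totals TAT1 and TAT2 turned to 0.23 and 0.07 in rny1Δ cells and TAT2 to -0.05 in rny1Δ atg2Δ cells.

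The difference in enrichment between the strains, rny1Δ atg2Δ minus rny1Δ, was above 0 for all 10 members and passed the test for 3: GNP1 (1.28 ± 0.25, adjusted p = 0.0012), HIP1 (1.18 ± 0.27, adjusted p = 0.0034) and BAP2 (1.16 ± 0.27, adjusted p = 0.0037), by edgeR's quasi-likelihood test. Of all tested genes 17.3% were called in either direction and 8.03% as higher. The other values were 0.90 ± 0.32 for TAT1, 0.89 ± 0.27 for LYP1, 0.84 ± 0.27 for BAP3, 0.80 ± 0.27 for MUP1, 0.35 ± 0.24 for TAT2, 0.31 ± 0.28 for AGP1 and 0.15 ± 0.24 for CAN1. The members' median was 0.87, beside -0.03 for all genes.

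These calls were close to the threshold. Without rny1Δ atg2Δ vacuole replicate 1, which leaves only the shallow replicate 2 on that side, GNP1 (1.30), BAP2 (1.04) and HIP1 (0.92) kept their direction with adjusted p of 0.010, 0.025 and 0.050 (edgeR), and none was called. Without replicate 2, the same number of 3 was called. A coding length correction left none called (GNP1 1.04, HIP1 1.01 and BAP2 0.99), and a minimum of 10 counts in each of the libraries left GNP1 called. Without rny1Δ total replicate 2 TAT1 (1.10) was also called, and without rny1Δ vacuole replicate 2 LYP1 (1.11). Scaling to library totals moved the median of all genes to -0.51 and left GNP1 at 0.81, HIP1 at 0.71 and BAP2 at 0.70, and turned AGP1, TAT2 and CAN1 below 0 (-0.16, -0.12 and -0.32). Counts of mitochondrially encoded genes were 0.843 and 1.23% in the treated rny1Δ atg2Δ vacuoles, against 0.291 and 0.349% in the treated rny1Δ vacuoles, and their part in the result was not tested.

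**Figure D5:**
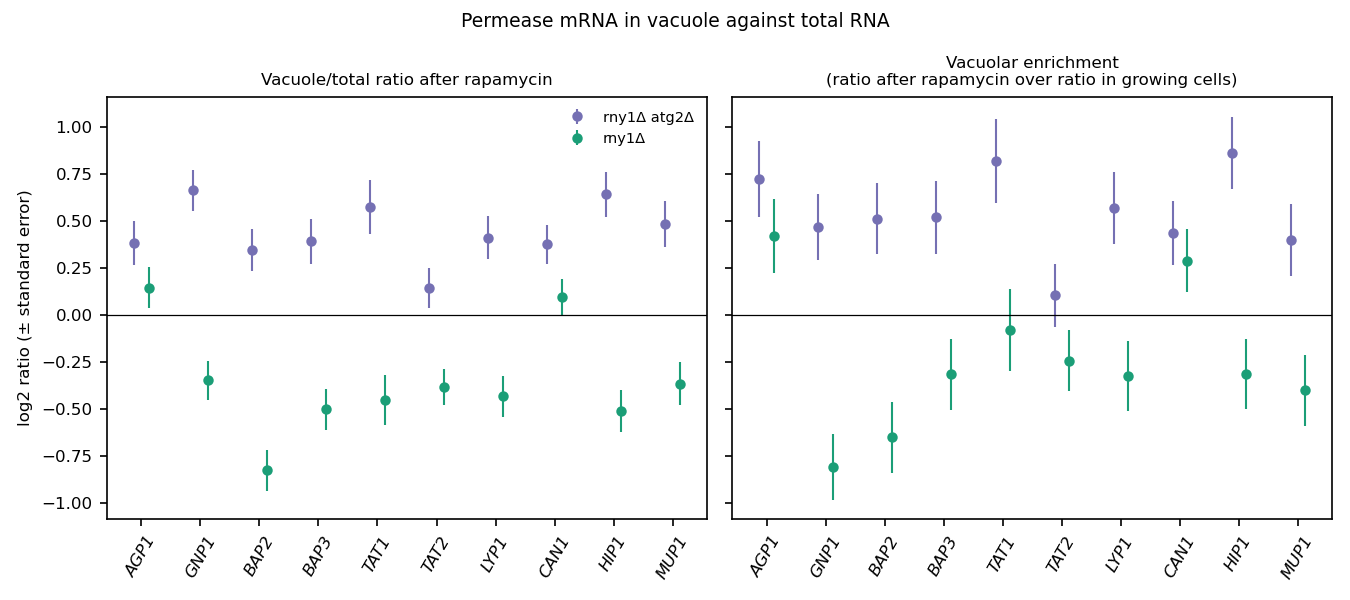
Log2 vacuole/total ratio after rapamycin (left) and vacuolar enrichment (right) of the 10 permease genes (x axis), with standard errors, in rny1Δ atg2Δ and rny1Δ cells. All rny1Δ atg2Δ values are above 0, and in rny1Δ cells only AGP1 and CAN1 are.

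Ribosome footprints were read with a reservation. Growing footprint replicate 2 stood apart from replicate 1: AGP1 had 75.6 and 308 normalized CPM in replicates 1 and 2, while growing mRNA had 55.6 and 58.1. CAN1 was also higher in footprint replicate 2 (202 and 273 CPM), and the other 8 members were lower, with log2 differences from -0.88 (TAT1) to -0.15 (TAT2). Across 5042 genes the difference between the footprint replicates had a Pearson r of 0.70 with the WT mRNA change at 3 h. This r is a description over genes, which are not independent, and the points share no library. The main footprint changes are therefore also given without each growing replicate, from a joint fit of the remaining WT libraries.

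Footprints of AGP1 stood at 636, 651 and 605 CPM at 1, 2 and 3 h, above both growing libraries. The log2 change at 3 h was 1.66 ± 0.76 (adjusted p = 0.31, edgeR), which did not pass the test. It was 2.98 without growing replicate 2 and 0.98 without replicate 1. CAN1 footprints were at 472, 472 and 382 CPM, also above both growing libraries (log2 change 0.69 ± 0.50 at 3 h, 0.90 without growing replicate 2 and 0.49 without replicate 1). TAT1 footprints were at 14.6, 43.6 and 60.2 CPM at 1, 2 and 3 h, after 325 and 177 CPM in growing cells. MUP1 footprints were at 29.6, 83.8 and 144 CPM, after 359 and 245 CPM. Both genes fell at 1 h, 17.2-fold lower for TAT1 (log2 change -4.11 ± 0.64, adjusted p = 0.0055) and 10.2-fold lower for MUP1 (-3.35 ± 0.58, adjusted p = 0.0074), by edgeR. Without growing replicate 2 these log2 changes were -4.50 for TAT1 and -3.62 for MUP1, and without replicate 1 they were -3.60 and -3.05.

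BAP2 footprints were at 67.8, 57.8 and 69.9 CPM, after 326 and 207 CPM in growing cells, and BAP3 footprints at 41.9, 88.2 and 95.7 CPM, after 190.0 and 143 CPM. GNP1 footprints were at 90.5, 179.9 and 171 CPM, after 308 and 206 CPM. In these 3 genes every rapamycin library lay below both growing libraries. HIP1 footprints were at 85.3, 91.8 and 83.6 CPM, after 275 and 164 CPM, and TAT2 footprints at 36.6, 52.3 and 45.8 CPM, after 94.1 and 84.8 CPM. LYP1 footprints were at 248, 249 and 238 CPM, after 382 and 297 CPM, again below both growing libraries.

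In this fit 2 members were called at 1 h, where 6.08% of all genes were, and 0 at 2 and 3 h, where 0.0% of all genes were. At an unadjusted p under 0.05 there were 5 members at 2 h and 4 at 3 h, beside 16.7% and 17.0% of all genes, and DESeq2's Wald test called 2 at 2 h and 0 at 3 h. With counts simulated at the spread of these libraries, the 3 h test found only 10 of 100 genes given a log2 change of 2.0, so a change of this size was mostly not detectable. The members' median was -1.43, -0.85 and -0.88 at 1, 2 and 3 h, beside 0.05, 0.04 and 0.04 for all genes. Without growing footprint replicate 2, a joint fit of the remaining WT libraries takes their spread from the mRNA replicates. Called members are therefore not counted there, nor without replicate 1. Every member kept its direction at every time in both of these fits. At 3 h BAP2 was -2.24 without replicate 2 and -1.56 without replicate 1. With the replicate block in the fit of all 10 WT libraries, 4, 3 and 2 were called. The share of all genes called with the block is not given here. A coding length correction left 0 at 1 h, as did library totals.

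Ribosome association, the change in footprints relative to the change in mRNA, was tested as an interaction in 1 fit of all 10 WT libraries. None of the 10 members was called at 1, 2 or 3 h, where 0.0% of all genes were. No member had an unadjusted p under 0.05, and DESeq2 called 0 at each time. The members' medians were -0.04, 0.17 and 0.06 at 1, 2 and 3 h, beside -0.14, -0.12 and -0.05 for all genes. For 9 members the values lay between -0.60 (MUP1 at 1 h) and 0.46 (HIP1 at 2 h), with standard errors of 0.33 to 0.57.

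AGP1 was the exception, with -1.67 ± 1.06, -1.50 ± 1.06 and -1.77 ± 1.06 at 1, 2 and 3 h. Its log2 footprint/mRNA ratio was 0.70 and 2.62 in the growing replicates and 0.31, 0.48 and 0.21 at 1, 2 and 3 h. The low value of association thus came with the high growing replicate 2. Without that replicate the value at 3 h was -0.45, and without replicate 1 it was -2.45.

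The footprint/mRNA ratio in growing cells is given as a description, since the replicates did not place all members alike. GNP1 had log2 ratios of 0.26 and -0.26, and HIP1 0.60 and -0.02, in replicates 1 and 2. No member was called (10.2% of all genes were). By edgeR 3 had an unadjusted p under 0.05, as did 48.7% of all genes, and DESeq2's Wald test called AGP1 and TAT2. TAT2 had the lowest fitted ratio, with log2 ratios of -0.95 and -0.92 in replicates 1 and 2 and -0.90, -0.57 and -0.80 at 1, 2 and 3 h. TAT1, with -0.28 and -1.04 in growing cells and -0.94, -0.35 and -0.29 later, was below TAT2 in growing replicate 2 and at 1 h. Growing libraries were paired by replicate number for these ratios, though no source ties the numbers together. Both the tryptophan and the tyrosine permease mRNA had a ratio below 0 in every library pair formed this way. For TAT1, the mRNA side of the ratio may hold reads of TBRT. LYP1 was above 0 in every pair, with 0.74 and 0.57 in growing cells and 0.63, 0.76 and 0.65 later. In growing cells the fitted log2 ratios were -0.94 ± 0.20 for TAT2 (adjusted p = 0.02) and 0.66 ± 0.23 for LYP1 (adjusted p = 0.072) by edgeR, and 1.98 ± 0.63 for AGP1, which was 0.66 without growing footprint replicate 2 and 2.66 without replicate 1. The 6 members HIP1, MUP1, CAN1, GNP1, BAP2 and BAP3 had 0.34, 0.48, 0.40, 0.03, -0.23 and -0.33. TAT1 had -0.59, which was -1.11 without replicate 1.

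Over the 12 libraries of the vacuole experiment, likeness between members was measured by the correlation of their log2 CPM. These correlations share libraries, strains and treatment and are given as a description. AGP1 and CAN1 went together (Pearson r = 0.97). The 7 members other than AGP1, CAN1 and BAP2 correlated with one another at 0.80 to 0.98 over 21 pairs, with HIP1 and MUP1 the most alike. AGP1 and TAT1 ran opposite to each other (-0.90). BAP2 correlated with AGP1 at 0.71 and with its neighbour TAT1 at -0.48.

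Among 4541 genes with a mean log2 CPM of at least 4, the most similar to AGP1 were DIP5, the dicarboxylic amino acid permease gene (r = 0.996), and GAP1, the general amino acid permease gene (0.995). CAN1 was most similar to DIP5 (0.975) and FUM1 (0.965). GNP1 was most similar to OPT1, an oligopeptide transporter gene (0.982), and REV1 (0.973). HIP1 and BAP3 were both most similar to PMA1, the plasma membrane proton pump gene (0.980 and 0.961), followed by BRR2 (0.978) for HIP1 and HUR1 (0.958) for BAP3. BAP2 was closest to NVJ2 and CYR1 (0.992 and 0.991), TAT1 to RRP5 and EMP70 (0.993 each), and MUP1 to PMT1 and AFI1 (0.992 and 0.991). TAT2 was closest to ALE1 and ALG9 (0.960 and 0.958) and LYP1 to BRR2 and PHO81 (0.954 each).

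Genes around the permeases were counted from 4 lists. Of 9 other amino acid permease genes, 4 rose and 0 fell in WT mRNA at 3 h, when 11.7% of all genes rose and 15.9% fell, with a median log2 change of 0.72. The largest changes were those of permeases known for nitrogen scavenging: GAP1 (6.89 ± 0.15), with 18.8 and 21.9 CPM in growing cells and 2576, 3026 and 2425 CPM at 1, 2 and 3 h, then the proline permease gene PUT4 (5.52 ± 0.16) and DIP5 (3.19 ± 0.12). In the mutants, 7 of these 9 rose in each strain and 0 fell, beside 23.4% of all genes that rose in rny1Δ atg2Δ cells and 21.3% in rny1Δ cells. In vacuolar enrichment, 1 of the 9 was called in rny1Δ cells, AGP2 (-1.01 ± 0.19), and 0 in rny1Δ atg2Δ cells.

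Of 9 genes of the SPS sensor and its effectors, 1 rose and 0 fell in WT mRNA at 3 h, when 11.7% of all genes rose and 15.9% fell. This was STP2 (1.46 ± 0.12), with 32.0 and 35.4 CPM in growing cells and 96.0, 88.6 and 93.0 CPM at 1, 2 and 3 h. In the total RNA of the mutants, 4 of the 9 rose in each strain and 0 fell. Of all genes, 23.4% rose in rny1Δ atg2Δ cells and 21.3% in rny1Δ cells. None was called in vacuolar enrichment in either strain, with medians of -0.22 in rny1Δ atg2Δ cells and -0.28 in rny1Δ cells.

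Of 9 genes for permease packaging, ubiquitination and endocytosis, 1 rose and 1 fell in WT mRNA at 3 h, beside 11.7% and 15.9% of all genes. SHR3, whose product packages permeases for export from the endoplasmic reticulum, fell (-1.45 ± 0.15), and the kinase gene NPR1 rose (1.03 ± 0.13). In rny1Δ vacuolar enrichment 3 of the 9 were lower (7.98% of all genes were): the ubiquitin ligase gene RSP5 (-2.97 ± 0.21) and the arrestin-like adaptor genes LDB19 (-1.11 ± 0.17) and ECM21 (-1.01 ± 0.18). RSP5 had 1479.9 and 1199 CPM in rny1Δ vacuoles after rapamycin, against 7669 CPM in the single growing vacuole library, and 603 and 587 CPM in total lysates, against 436 CPM. It was also lower in rny1Δ atg2Δ enrichment, the 1 call of the list there, with 1544 and 1644 CPM in treated vacuoles, against 7038 CPM in growing ones. The low enrichment of RSP5 thus rested on its high level in the growing vacuole libraries.

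Of 20 other plasma membrane transporter genes, 3 rose and 6 fell in WT mRNA at 3 h, beside 11.7% and 15.9% of all genes. HXT1, a glucose transporter gene (-2.99 ± 0.19), and FUR4, the uracil permease gene (-2.01 ± 0.17), fell, and the ammonium permease gene MEP1 rose (2.06 ± 0.12). In vacuolar enrichment 0 of the 20 were called in rny1Δ atg2Δ cells (median 0.53), beside 3.72% of all genes. In rny1Δ cells 2 were called (median 0.11), beside 20.1% of all genes in either direction. These were the iron permease gene FTR1 (1.42 ± 0.17) and the ammonium permease gene MEP3 (1.06 ± 0.17). In the difference between the strains, the median was 0.39 for these 20 genes and 0.56 for the 9 other amino acid permease genes, beside 0.87 for the 10 members and -0.03 for all genes.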

How the data were processed

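Per the labels and the study's methods, the authors removed rRNA reads with Bowtie2 (2.1.0), aligned reads to sacCer3 with TopHat2 (2.0.9) or STAR (2.7.0a), and deposited raw counts per gene (HTSeq, 0.6.1, in the vacuole experiment). The footprint counts are of reads with duplicate molecular identifiers removed. In the vacuole experiment, 45.9 to 47.7% of uniquely aligned reads fell on no feature and were left out. The strand setting of the counting is not given in the sources used here. The files pair locus tags only, and symbols and coordinates came from RefSeq (R64).

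Genes annotated as protein-coding were kept where a fit's libraries held 10 or more counts in sum, and were tested with edgeR (4.0.16, R 4.3.3) on TMM-scaled counts, by quasi-likelihood F tests with Benjamini-Hochberg adjustment. The fits held the 12 libraries of the vacuole experiment (4 residual degrees of freedom), the 5 WT mRNA libraries (1), the 5 footprint libraries (1) and all 10 WT libraries (2), the last for ribosome association. Standard errors are the log2 change over the square root of F. DESeq2 (1.42.0) was an alternative. Log2 CPM used a prior count of 2. TPM were computed from the counts and the coding length deposited in the WT files, with the 10 codons added by which it falls short of the annotated genes. The test was checked on counts simulated with the common spread of each fit, the same for all genes. At 3 h the test recovered 99 of 100 genes changed by 1.5 (log2) in WT mRNA, 97 of 100 in rny1Δ enrichment and 4 of 100 in footprints. Such counts cannot show whether the spread itself was well estimated from so few libraries. Counts cover counting error only, and PCR duplicates of the RNA libraries were not marked. Replicates were independent biological replicates per the study.

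The members and lists were chosen with earlier results of these data known. The text names all 10 members, up to 3 genes of each other list with the largest change among those called in rny1Δ enrichment or WT mRNA at 3 h, and the 2 most similar genes of each member. No sequences were analysed here.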

Additional observations from a re-analysis of the deposited data

Results flagged for a closer look

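Vacuolar enrichment differed between rny1Δ atg2Δ and rny1Δ cells for 3 permease genes, by a test of the difference itself (edgeR's quasi-likelihood interaction). The log2 differences, rny1Δ atg2Δ minus rny1Δ, were 1.28 for GNP1, 1.18 for HIP1 and 1.16 for BAP2. Of all tested genes, 8.03% were called as higher and 17.3% in either direction. The growing ratio of each strain rested on 1 vacuole and 1 total library. Over the alternative settings the lowest values were 0.81 for GNP1, 0.71 for HIP1 and 0.70 for BAP2, under the fold threshold.

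BAP2 moved in opposite directions with 3 h of rapamycin: its log2 change was 0.85 in rny1Δ total RNA and -2.18 in WT mRNA, with every treated library above its growing library in the mutants and below both growing libraries in WT cells. This difference between experiments was not tested.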

How the results depend on the processing

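Directions of the members held in most of the 22 alternative settings, and no called change of a member reversed. Of the counts of called members, 232 of 276 were within 1.5 times the value reported. Many comparisons had no called member in the main fit, so this share does not measure how firm the calls are. The strain difference in enrichment had 3 called members, 1 with at least 10 counts in every library, 0 with a coding length correction, 0 with library totals, and 0 to 4 when 1 library was left out. The rny1Δ vacuole/total ratio had 0 to 1 with 1 library left out. Total RNA of rny1Δ cells had 5 with at least 10 counts in every library and 2 to 5 with 1 library left out. Vacuole RNA between strains, with 5, had 3 with at least 10 counts in every library, 2 with the length correction, 1 with library totals and 3 to 6 with 1 library left out.

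In WT mRNA, 1 h had 3 called members in the fit of all 10 libraries and 3 to 9 with 1 library left out. At 2 h these were 0 and 1 to 8, and at 3 h 0 and 0 to 7, with 4 for library totals. Footprints had 0 at 1 h with the length correction and 0 with library totals. At 2 h they had 2 by DESeq2's Wald test, 1 with no filter and 1 with at least 10 counts in every library. Ribosome association had 0 to 1 at 1, 2 and 3 h with 1 library left out. Growing footprints against mRNA had 2 by DESeq2's Wald test and 0 to 3 with 1 library left out. Libraries of WT cells were left out of the joint fit of all 10, where the remaining growing library was assumed to vary like the other data type's replicates.

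Library totals also moved the split of all called genes. In WT mRNA it was 857 higher and 969 lower at 1 h, 663 and 859 at 2 h and 691 and 945 at 3 h, against 2046 and 611, 2159 and 459, and 2125 and 382 with totals. In rny1Δ atg2Δ enrichment it was 130 and 84, against 77 and 148, in rny1Δ enrichment 697 and 459, against 1190 and 197, and in their difference 462 and 533, against 130 and 1242. The vacuole/total ratio had 104 and 85 in rny1Δ atg2Δ cells, against 51 and 235, and 646 and 409 in rny1Δ cells, against 980 and 238. Vacuole RNA between strains had 620 and 837, against 227 and 1521, and growing footprints against mRNA 213 and 394, against 60 and 281.

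Replicate numbers were not taken to pair the samples in the main tests, since no source says which numbers go together. Footprint/mRNA ratios of single growing replicates did match libraries by number, as a description. Replicate differences correlated across genes at 0.05 in rny1Δ atg2Δ and 0.19 in rny1Δ cells (vacuole with total) and 0.10 in growing WT cells (footprints with mRNA). With a replicate block, called members were 5 at 2 h and 3 at 3 h in WT mRNA, and 4, 3 and 2 in footprints at 1, 2 and 3 h, and other counts stayed within 1.5 times. Depth limited rny1Δ atg2Δ vacuole replicate 2 and the footprints of growing cells and of 2 h.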
